A study of Mus musculus with 6 samples.

Results

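The FGF receptor genes and the genes that report and restrain ERK signalling were examined in mouse embryonic stem cells without Dicer, 24 h after the microRNAs of the miR-290 cluster had been returned to them. The 9 genes are the receptors Fgfr1 and Fgfr2, the adaptor Grb2, the feedback inhibitors Dusp6, Spry2 and Spry4, and the transcription factors Etv4, Etv5 and Egr1. They were taken as every probe set whose only gene symbol in the platform annotation is one of these, which gave 21 of the 45101 probe sets on the array. The mimic arrays are 3 samples of the undifferentiated Dicer -/- line (27H10 in the title of the study, 27H in the sample titles) that received Dharmacon mimics of the mmu-miR-290 cluster. The control arrays are 3 samples of the same line transfected with an siRNA directed at the luciferase of the sea pansy Renilla, a gene that mouse cells do not have. Both groups therefore lack Dicer, the enzyme that cuts microRNA precursors, both underwent transfection, and both come from a single line. The amount of mimic and the arms of the microRNAs used are not given in the labels, nor is it said whether the replicates were separate cultures, so the p-values rest on the spread among these samples alone, and that spread may be technical.

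FGF receptors are tyrosine kinases on the cell surface. When they bind an FGF, adaptor proteins including GRB2 lead to activation of RAS and, through RAF and MEK, of the kinase ERK. ERK in turn raises transcription of Egr1, Etv4 and Etv5 and of its own inhibitors, the Sprouty proteins, which act upstream of ERK, and the phosphatase DUSP6, which removes the activating phosphates from ERK itself. In mouse embryonic stem cells FGF4 made by the cells drives this pathway, which readies them to leave the naive state.

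The microRNAs of the cluster recognise messenger RNAs through their seed, bases 2 to 8 of the mature strand, which pairs with them. The mature 3p strands below are shown because mimics of such strands carry these seeds. They are 6 strands of the cluster, not its full set, taken from RefSeq (GRCm38.p6, plus strand of mouse chromosome 7, between 3218674 and 3220837) and written 5′ to 3′ with the seed in capitals.
mmu-miR-291a-3p: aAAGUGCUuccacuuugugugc
mmu-miR-294-3p: aAAGUGCUucccuuuugugugu
mmu-miR-295-3p: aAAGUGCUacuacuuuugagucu
mmu-miR-290a-3p: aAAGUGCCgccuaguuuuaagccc
mmu-miR-291b-3p: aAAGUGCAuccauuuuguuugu
mmu-miR-293-3p: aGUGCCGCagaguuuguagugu
The first 3 share 1 seed, and 5 of the 6 have AAGUGC at bases 2 to 7, while miR-293-3p is shifted. Matches to these seeds in the transcripts of the 9 genes were not analysed here.

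Each sample was read on 1 Affymetrix array as a linear intensity per probe set. Array medians lay between 44.1 and 44.8 on the mimic arrays and between 41.7 and 44.9 on the control arrays, and pairs of arrays correlated (log2, tested probe sets) at 0.963 to 0.969 inside a group and 0.959 to 0.964 across groups. With 3 arrays a group, precision is limited by their number. Of the markers fixed for embryonic stem cells, 14 of 15 probe sets passed the filter on low values and the summed level was 123090 to 128955 on the mimic arrays and 114353 to 122720 on the control arrays, so the defining transcripts of the labelled cell type were present. In the main limma test 0 of the 14 were called, where 1.29% of all tested probe sets were (0.343% higher and 0.946% lower). In 8 all mimic values were above all control values and in 0 below, against 13.8% and 15.5% of all tested probe sets. With the level-dependent robust prior explained below, 1 probe set each of Dppa3 (0.51), Esrrb (0.23) and Utf1 (0.21) was called higher, or 21.4%, against 4.73% of all. The groups overlapped for Pou5f1, Nanog and Sox2. A set of primitive endoderm markers summed to 2917 to 3208 on the mimic arrays and 2675 to 3048 on the control arrays, with 0 of 19 tested probe sets called. Fibroblast markers summed to 851 to 946 on the mimic arrays and 1208 to 1248 on the control arrays. Tagln was the only 1 of their 6 tested probe sets called (lower), or 16.7%, against 0.946% of all. Dcn was also below its control values without overlap (log2 fold change −0.90, limma adjusted p = 0.105) and Pdgfrb above them (0.43, limma adjusted p = 0.0859), while 3 collagen genes typical of fibroblasts (Col1a1, Col1a2, Col3a1) stayed under the filter. Trophectoderm markers summed to 7914 to 8438 on the mimic arrays and 10835 to 11013 on the control arrays, where Krt8 and Krt18 fell. Of their 11 tested probe sets 4 were called lower, or 36.4%, against 0.946% of all. These 4 probe sets belong to only those 2 genes. Of the trophectoderm factor genes, Cdx2 and Elf5 were below the filter, and Eomes, Gata3, Hand1 and Tfap2c were tested and not called, at log2 fold changes from −0.31 to 0.01. The part of these marker shifts in the results below was not tested.

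With the miR-290 mimics, Spry4, Etv4 and Egr1 gave higher intensities, by 1.43-fold to 1.78-fold on the probe set of each with the smallest p. For Etv4 and Egr1 that is also the brightest probe set, while the brightest of Spry4 gave 1.35-fold. The groups overlapped on every tested probe set of Dusp6, Grb2 and Fgfr2, and Etv5 was slightly lower. None of these differences passed the test across the whole array. In limma, 0 of 19 tested probe sets of the 9 genes passed at 0.05 after Benjamini-Hochberg adjustment, where 1.29% of all 29167 tested probe sets did (0.343% higher and 0.946% lower). At an unadjusted limma p under 0.05 there were 6, against 20.1% of all tested probe sets. When limma's prior variance was let depend on mean intensity and was estimated robustly (the level-dependent robust prior), 3 of the 19 were higher and 0 lower, against 4.73% and 6.56% of all probe sets. These 3 were Spry4, Etv4 and Egr1, each with 1 probe set. In 11 of the 19 the 3 mimic values and the 3 control values did not overlap, against 29.2% of all tested probe sets. In 8 of these the mimic arrays were above (13.8% of all) and in 3 they were below (15.5%). Probe sets of a gene measure 1 transcript pool and do not count as separate genes. The median log2 fold change over the 19 was −0.02, beside −0.01 over all tested probe sets. In bulk RNA, fewer cells that express a gene and less RNA per cell cannot be told apart.

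**Figure D1:**
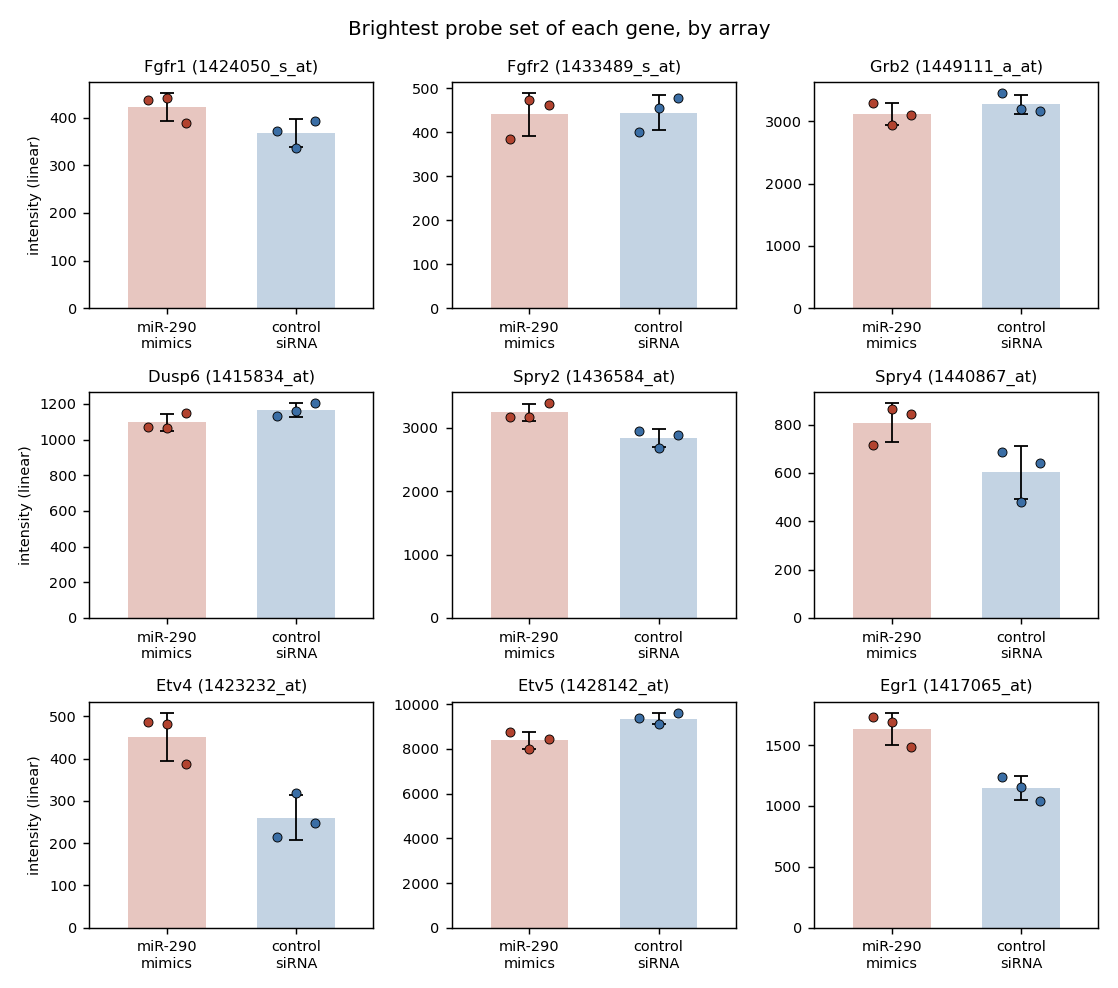
Linear intensity of the brightest probe set of each of the 9 genes on the 3 miR-290 mimic arrays (left in each panel) and the 3 control siRNA arrays (right). Points are arrays, bars are means and error bars are SD (n = 3 each). The 2 groups do not overlap for Spry2, Spry4, Etv4, Etv5 and Egr1, and they overlap for Fgfr1, Fgfr2, Grb2 and Dusp6.

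The receptor genes showed no common shift. Fgfr1, the FGF receptor that embryonic stem cells rely on most, is measured by 3 probe sets. On the brightest, 1424050_s_at, intensities were 437, 442 and 389.7 on the mimic arrays and 372, 336 and 393 on the control arrays, so the third control array lay above the third mimic array and the groups overlapped. The log2 fold change was 0.20 ± 0.099 SE (95% interval −0.05 to 0.46, limma adjusted p = 0.331). The dimmest, 1436551_at, pointed the other way, with 76.8, 68.7 and 76.8 on the mimic arrays and 79.6, 101 and 102 on the control arrays, where every mimic value was below every control value. Its log2 fold change was −0.34 ± 0.129 SE (limma adjusted p = 0.233), and the third probe set, 1425911_a_at, gave −0.18 (limma adjusted p = 0.66). The log2 fold changes of the brightest and the dimmest Fgfr1 probe set differed by 0.54. That difference had an exact 2-sided permutation p of 0.1, the smallest that 3 against 3 arrays allow (0.2 adjusted over the 4 pairs of probe sets compared here). Averaging the 3 probe sets turned the Fgfr1 value to −0.10, so these arrays give no settled direction for the gene.

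Fgfr2, which encodes a receptor that binds an overlapping range of FGFs, was level on its brightest probe set. Probe set 1433489_s_at read 385, 475 and 462 on the mimic arrays and 402, 454 and 478 on the control arrays. The values interleave, and the log2 fold change was −0.02 ± 0.122 SE (95% interval −0.32 to 0.29, limma adjusted p = 0.959). A dimmer probe set, 1420847_a_at, gave −0.21 ± 0.142 SE with overlapping groups (limma adjusted p = 0.473). The third, 1443211_at, was below the filter, at 1.28 to 18.2 on the mimic arrays and 2.35 to 12.1 on the control arrays, and was not tested. Fgfr1 and Fgfr2 differed in their log2 fold change by 0.22, with overlapping groups and an exact permutation p of 0.2. The suffix _s_at marks probes that can recognise more than 1 transcript, which holds for the brightest probe set of both receptors.

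Grb2, the adaptor that couples the receptors to the RAS activator SOS, had overlapping groups on both of its probe sets. Probe set 1449111_a_at read 3296, 2942 and 3102 on the mimic arrays and 3456, 3199.8 and 3168 on the control arrays. The groups overlapped and the log2 fold change was −0.07 ± 0.083 SE (95% interval −0.28 to 0.14, limma adjusted p = 0.663). The second Grb2 probe set, 1418508_a_at, gave −0.04 ± 0.069 SE (95% interval −0.21 to 0.13, limma adjusted p = 0.783). These intervals are among the narrowest of the 9 genes, and they reach no lower than −0.28 and no higher than 0.14 on the log2 scale.

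The feedback inhibitors divided. Dusp6, the phosphatase that acts on ERK in the cytoplasm, read 1069.7, 1067 and 1151 on the mimic arrays and 1133, 1159.5 and 1206 on the control arrays. The third mimic array lay within the control values, and the log2 fold change was −0.09 ± 0.074 SE (95% interval −0.28 to 0.10, limma adjusted p = 0.547). Spry2, a Sprouty protein that blocks signalling between receptor and RAS, had 3176, 3165 and 3394 on the mimic arrays and 2951, 2679 and 2884 on the control arrays with probe set 1436584_at. All mimic values lay above all control values, by a mean of 1.14-fold; the log2 fold change of 0.19 ± 0.078 SE had a limma adjusted p of 0.257, and of 0.0587 with the level-dependent robust prior. A second Spry2 probe set, 1421656_at, was below the filter, with 5.64 to 53.9 on the mimic arrays and 2.23 to 35.1 on the control arrays.

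Spry4, the related Sprouty inhibitor, was higher on the mimic arrays with all 4 of its probe sets, and in none did the groups overlap. On 1422021_at intensities were 211, 196 and 254 on the mimic arrays and 127, 131 and 112 on the control arrays. The lowest mimic value exceeded the highest control value by a wide margin, and the means were 220.4 ± 29.9 and 123 ± 9.73 (SD, n = 3 each). The log2 fold change of 0.83 ± 0.129 SE, or 1.78-fold, had a limma adjusted p of 0.0581, and of 0.00768 with the level-dependent robust prior. The brightest Spry4 probe set, 1440867_at, read 715, 865 and 845 on the mimic arrays and 686, 479.6 and 640.4 on the control arrays. Here the gap between the lowest mimic and the highest control array was small. The log2 fold change was 0.44 ± 0.169 SE (limma adjusted p = 0.239, and 0.0532 with the level-dependent robust prior). Probe set 1445669_at read 636, 634 and 661 on the mimic arrays and 539.7, 322 and 536 on the control arrays (0.51 ± 0.224 SE, limma adjusted p = 0.292, and 0.0897 with the level-dependent robust prior). Control replicate 2 was the lowest array on both of these, and without it their log2 fold changes were 0.28 and 0.26. The dim probe set 1422020_at, at 77.1, 68.8 and 51.2 on the mimic arrays and 49.3, 44.7 and 3.79 on the control arrays, gave 1.67 ± 1.07 SE, a fold that rests on the near-floor value of control replicate 3: without that array it was 0.46. Compared with Spry2, the brightest Spry4 probe set had a log2 fold change higher by 0.24, with overlapping groups and an exact permutation p of 0.2, in a design that cannot go below 0.1.

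**Figure D2:**
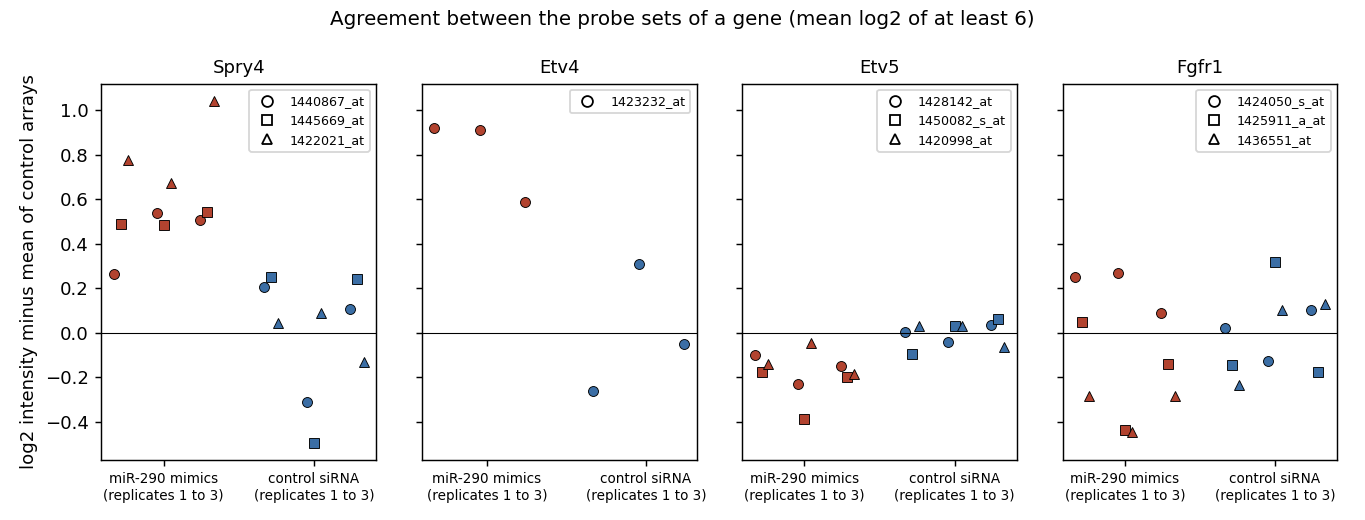
Log2 intensity of each array minus the mean of the 3 control arrays, for probe sets of Spry4, Etv4, Etv5 and Fgfr1 with a mean log2 of at least 6. Red points on the left are the miR-290 mimic arrays, blue points on the right the control arrays, and symbols are probe sets. The 3 Spry4 probe sets are above 0 on every mimic array, the 3 Etv5 probe sets are below 0 on every mimic array, and the Fgfr1 probe sets lie on either side.

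Etv4 and Etv5 encode closely related ETS transcription factors that ERK signalling induces in many tissues, and their transcripts lay on opposite sides of the controls. Etv4 probe set 1423232_at read 486, 482 and 386 on the mimic arrays and 214, 319 and 248 on the control arrays. The groups did not overlap, with means of 452 ± 56.6 and 260.3 ± 53.3 (SD, n = 3 each). The log2 fold change was 0.81 ± 0.184 SE, or 1.75-fold, with a limma adjusted p of 0.1 and of 0.00661 with the level-dependent robust prior. A dim second Etv4 probe set, 1443381_at, read 50.9, 74.0 and 69.8 on the mimic arrays and 3.24, 37.1 and 38.7 on the control arrays. Its log2 fold change of 1.94 ± 1.04 SE did not pass either (limma adjusted p = 0.371), and without control replicate 1, the array at 3.24, it was 0.76.

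Etv5 had small differences in the other direction on all 3 of its probe sets. The brightest, 1428142_at, read 8743, 7979 and 8449.8 on the mimic arrays and 9379.8, 9091 and 9604 on the control arrays. Every mimic value was below every control value, although by only 1.12-fold on average (log2 fold change −0.16 ± 0.074 SE, limma adjusted p = 0.314). Probe set 1450082_s_at, with 1287, 1111 and 1266 on the mimic arrays and 1362, 1486 and 1520.1 on the control arrays, also had no overlap (−0.25 ± 0.096 SE, limma adjusted p = 0.229). The third, 1420998_at, gave −0.12 ± 0.077 SE with overlapping groups (limma adjusted p = 0.432). The log2 fold change of the brightest Etv4 probe set exceeded that of Etv5 by 0.96. On each mimic array the Etv4 to Etv5 difference lay above that on each control array. This had to follow, because on these probe sets Etv4 lay above and Etv5 below its control values without overlap. The exact permutation p was 0.1 (0.2 adjusted over the 4 pairs), the smallest that this design allows. It was fixed by those separations and gives no further support.

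Egr1, a zinc finger factor that is transcribed within minutes of ERK activation, has a single probe set, 1417065_at. It read 1729, 1689.5 and 1485 on the mimic arrays and 1239, 1153 and 1042 on the control arrays. The groups were separated, with means of 1634 ± 131 and 1145 ± 98.8 (SD, n = 3 each), a 1.43-fold difference. The log2 fold change was 0.51 ± 0.107 SE (95% interval 0.24 to 0.78, limma adjusted p = 0.0859, and 0.00279 with the level-dependent robust prior). Among the 9 genes Egr1 had the smallest unadjusted p on its brightest probe set, and its array profile was set against the brightest probe sets of 7805 other genes with a mean log2 of at least 8. The closest, by the mean absolute difference between centred log2 values over the 6 arrays, were Tedc2 (0.048), Tsacc (0.050) and Thoc6 (0.0505). Their log2 fold changes were 0.51, 0.43 and 0.44.

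**Figure D3:**
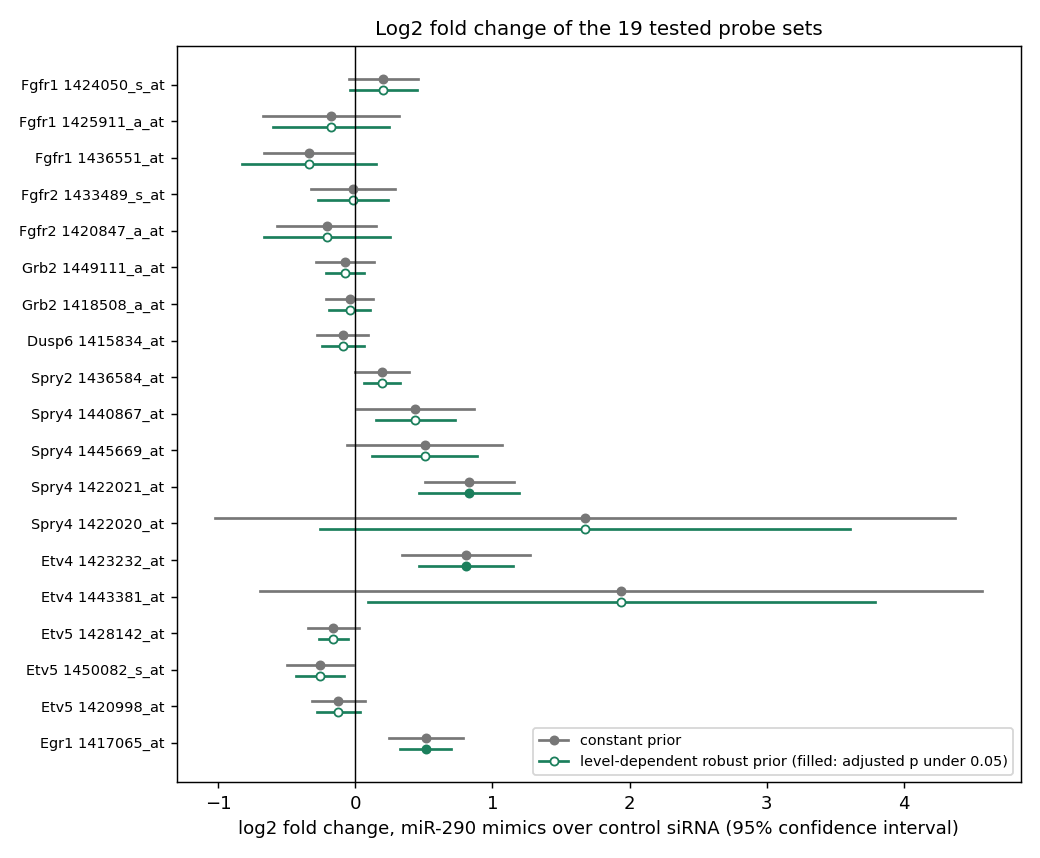
Log2 fold change of the 19 tested probe sets, miR-290 mimics over control siRNA, with 95% confidence intervals from limma. Grey is the constant prior and green the level-dependent robust prior, where filled points have an adjusted p under 0.05. The Spry4 1422021_at, Etv4 1423232_at and Egr1 intervals exclude 0 under both priors, at 0.83, 0.81 and 0.51, while Grb2, Dusp6 and Fgfr2 straddle 0. The intervals of Spry4 1440867_at (0.44) and Etv5 1450082_s_at (−0.25) also exclude 0 under both priors, without an adjusted p under 0.05 in either.

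The calls of these 3 genes turned on how the spread was modelled. When probe sets with a mean log2 under 6 were left out, the constant prior called Spry4 1422021_at (limma adjusted p = 0.0141), Egr1 (0.0263) and Etv4 (0.0337). With a minimum of 8, which leaves out that Spry4 probe set, it called Egr1 (0.00783) and Etv4 (0.0111). With the level-dependent robust prior these 3 probe sets were also called whichever array was left out, at adjusted p-values of up to 0.0182 for Egr1, 0.0345 for Etv4 and 0.0376 for Spry4 1422021_at. The brightest Spry4 probe set was called in 1 of those 6 runs. With the constant prior none of the 3 probe sets was called without an array, at 0.134 to 0.248, where at most 1 probe set of the whole array was. Their log2 fold changes held their sign in every alternative run, between 0.45 and 0.58 for Egr1, 0.72 and 0.91 for Spry4 1422021_at and 0.68 and 1.37 for Etv4 1423232_at, the last being the mean of both Etv4 probe sets.

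The other genes of the pathway were counted from lists of 94 genes in 6 roles. Of these, 85 had a probe set with 1 symbol, 73 were tested with 156 probe sets, and 12 were below the filter; the 9 others were not analysed here. In the main test 1 probe set rose and 2 fell, or 1.92%, against 1.29% of all tested probe sets, and all 3 belong to target genes. With the constant prior all 3 calls ended when any 1 array was left out, with no filter on low values, or with the replicate number as a block, and median centring ended the call of the higher one. With the level-dependent robust prior 8 were higher and 16 lower, or 15.4%, against 11.3%. The median log2 fold change of the 156 was −0.10, beside −0.01 over all tested probe sets.

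**Figure D4:**
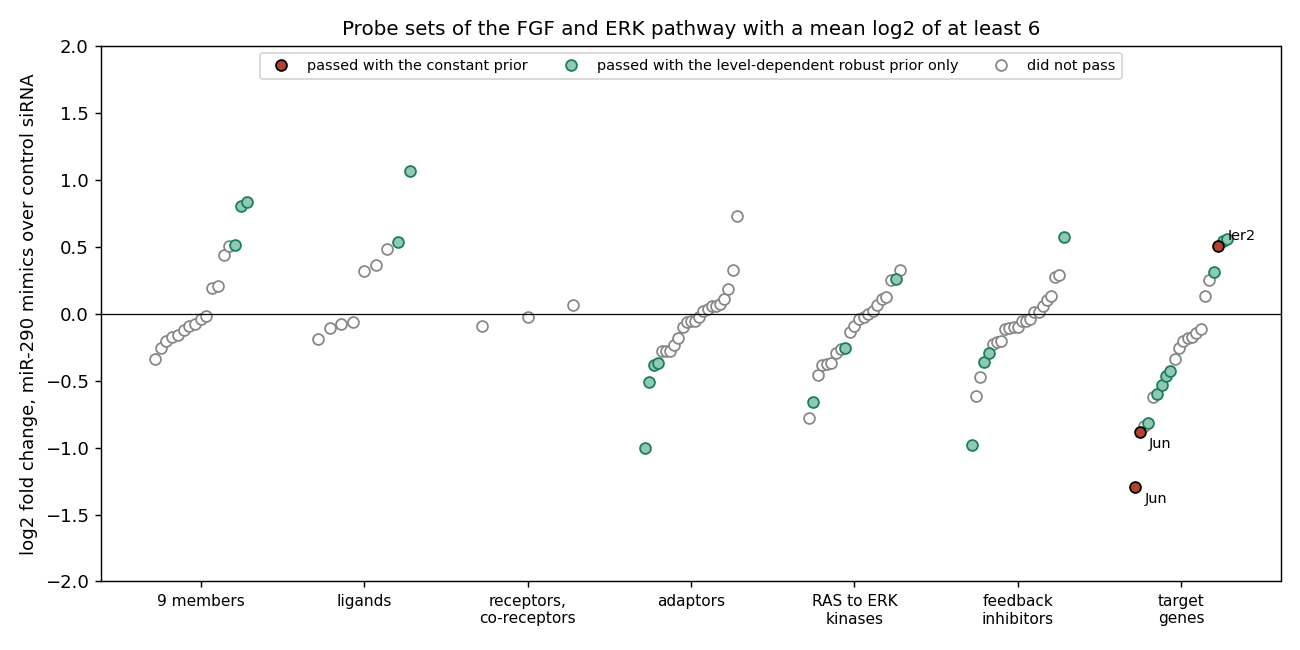
Log2 fold change, miR-290 mimics over control siRNA, of the tested probe sets with a mean log2 of at least 6, for the 9 genes (17 probe sets) and for the other pathway genes by role (101 probe sets). Each point is a probe set, sorted within its role, and filled points passed limma at an adjusted p under 0.05. Jun (−1.29 and −0.89) and Ier2 (0.51) passed with the constant prior, all among the target genes.

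The transcripts on the list of ERK target genes split. Ier2, an immediate early gene like Egr1, rose to 1516, 1571 and 1582 on the mimic arrays, against 1131, 1089 and 1061 on the control arrays. Its groups were far apart relative to their spread (log2 fold change 0.51 ± 0.069 SE, limma adjusted p = 0.047). Jun, which encodes a subunit of the AP-1 transcription factor, fell to 199.9, 217 and 183 on the mimic arrays, against 373, 359.6 and 371 on the control arrays on its brighter probe set. Its log2 fold change was −0.89 ± 0.089 SE (limma adjusted p = 0.0358), and on its other probe set, 1448694_at, −1.29 ± 0.096 SE (limma adjusted p = 0.0241). Ets2, an ETS factor gene, read 929.7, 836 and 999 on the mimic arrays and 1249, 1494 and 1444 on the control arrays without passing (−0.60, limma adjusted p = 0.0752). Ccnd1, the gene of cyclin D1, was at 4640.1 ± 115 on the mimic arrays and 3738 ± 235 on the control arrays (SD, n = 3 each), with a limma adjusted p of 0.121. Of the 35 tested probe sets of target genes, the level-dependent robust prior called 4 higher and 7 lower, or 31.4%, against 11.3% of all tested probe sets (4.73% higher and 6.56% lower). The higher ones were Ier2, Myc and 2 of Ccnd1. The lower ones were 2 of Jun and 1 each of Ets2, Elk3, Elk4, Phlda1 and Fos, the partner of Jun in AP-1. Elk3 and Elk4 encode factors that ERK phosphorylates, and the list counts their genes among the target genes. Fos read 629.7, 513 and 627 on the mimic arrays and 861, 796 and 782 on the control arrays, the opposite direction to Egr1 (−0.47 ± 0.112 SE, limma adjusted p = 0.108, and 0.0111 with the level-dependent robust prior). Fos, Myc, Elk3, Elk4 and Phlda1 were named after their values were seen.

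Among the other feedback inhibitors, 0 of 29 tested probe sets passed in the main limma test, with 8 at an unadjusted p under 0.05 (20.1% of all tested probe sets were). The level-dependent robust prior called 1 higher and 3 lower, or 13.8%, which is near the 11.3% of all tested probe sets. The higher one was Spry1, another Sprouty gene, at 199, 226 and 209 on the mimic arrays and 135, 145 and 147 on the control arrays. Its log2 fold change of 0.57 ± 0.084 SE had a limma adjusted p of 0.0544. The lower ones were the phosphatase genes Dusp1 (−0.36, limma adjusted p = 0.0778) and Dusp5 (−0.98, 0.0753), and Il17rd (−0.30, 0.182), whose product holds back FGF signalling at the membrane. A dimmer Il17rd probe set, 1452471_at, gave −0.62 without overlap (limma adjusted p = 0.0618, and 0.0625 with the level-dependent robust prior). Dusp1 read 2152, 2088 and 2229 on the mimic arrays and 2696, 2875 and 2753 on the control arrays, so this phosphatase gene was separated between the groups where Dusp6 was not. Pebp1, a RAF inhibitor gene, and Spred2, a relative of the Sprouty genes, gave 0.10 and −0.06 on their brightest probe sets. Spry1 and Dusp5 were named after their values were seen.

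Upstream of ERK, Fgf4, the main FGF that embryonic stem cells make, on its brightest probe set read 6087, 5828 and 5816 on the mimic arrays and 5950.1, 6299 and 6245 on the control arrays, with overlapping groups (log2 fold change −0.06 ± 0.069 SE, limma adjusted p = 0.667). On the next brightest, 1420086_x_at, every mimic value was below every control value (−0.10, limma adjusted p = 0.466). The dimmer 1450282_at and 1449729_at gave −0.19 and −0.08 with overlapping groups. Fgf17 (0.54, limma adjusted p = 0.121) and Fgf15 (1.07, limma adjusted p = 0.0617) were called higher with the level-dependent robust prior (adjusted p = 0.0322 and 0.0152), the only 2 of 21 tested ligand probe sets, or 9.52% against 11.3% of all. Fgf15, named after its values were seen, read 123, 110.4 and 108 on the mimic arrays and 66.1, 55.5 and 43.3 on the control arrays. Fgf13, which the list counts among the ligands although its product acts inside cells, gave 0.36 (limma adjusted p = 0.295). Of 10 probe sets of other receptors and co-receptors, Fgfrl1, Flrt2 and Flrt3 among them, 0 were called with either prior. An unadjusted limma p under 0.05 was reached by 1, against 20.1% of all tested probe sets.

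Of 32 tested probe sets of adaptor genes that act beside Grb2, 0 passed in the main limma test. An unadjusted limma p under 0.05 was reached by 6 of them, and by 20.1% of all tested probe sets. The level-dependent robust prior called 4 lower and 0 higher, or 12.5%, near the 11.3% of all tested probe sets. These were 2 of Crk, an SH2 and SH3 adaptor, and 1 each of Sos1 and Sos2, the exchange factors that GRB2 brings to RAS. Sos1 read 613, 676 and 628 on the mimic arrays and 942, 818 and 977 on the control arrays (log2 fold change −0.51 ± 0.0995 SE, limma adjusted p = 0.0774). Its second brightest probe set gave −0.24 and was not called. Sos2, named after its values were seen, read 136, 132 and 225 on the mimic arrays and 374, 275 and 313 on the control arrays with a limma adjusted p of 0.119. Gab1 and Ptpn11, which encode a docking protein and a phosphatase needed for ERK activation, differed by −0.06 and −0.03. Among RAS, RAF, MEK and downstream kinase genes, 0 of 29 passed in the main limma test (7 at an unadjusted p under 0.05, against 20.1% of all). The MEK gene Map2k1 gave −0.09, and Rps6ka3, the gene of an ERK-activated kinase, read 774, 619 and 705 on the mimic arrays and 1339.8, 929 and 1062 on the control arrays (−0.66, limma adjusted p = 0.123). With the level-dependent robust prior Rps6ka3 and Rasa1 were called lower and Nras higher, each on 1 probe set, 10.3% of the 29 against 11.3% of all. The brightest probe sets of Rasa1 (−0.29) and Nras (0.13) and the second brightest of Rps6ka3 (−0.26) were not called. Their limma adjusted p-values with that prior were 0.0752, 0.303 and 0.11.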

How the data were processed

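The authors deposited linear intensities, 1 per probe set and array, and the submitters' processing notes name GCRMA, with no version; detection calls were not used here. On every array the mean without the lowest and highest 2% is 500.0, as global scaling gives, so the step that produced them remains unknown. Sample titles gave each array its group and replicate number. The values were log2-transformed with no offset and not normalized again. Control probe sets (64) and 15870 probe sets with a mean log2 under 4 over the 6 arrays were left out, which left 29167. Of the probe sets, 34958 had 1 gene symbol, 932 several and 9211 were not listed.

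A log2 fold change is the mimic mean less the control mean. The 2-sided test was limma 3.58.1 under R 4.3.3 (lmFit, eBayes, constant prior) across all tested probe sets, with Benjamini-Hochberg adjustment and a threshold of 0.05. Means and SDs are of linear intensities. The code was tested on simulated data. The members and lists were chosen with earlier results of these data known. In each role the rule named pathway genes past the threshold, the 3 with the brightest probe set, and the 2 that differed most among genes whose mean log2 reached 8. Alternatives were the level-dependent robust prior, median centring, quantile normalization, an offset of 16, no filter, filters at 6 and 8, averaging the probe sets of each gene, leaving out each array, and the replicate number as a block.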

Additional observations from a re-analysis of the deposited data

How the results depend on the processing

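The counts moved with the settings, in the order of the 9 genes, the other pathway genes and all tested probe sets. In the main test they were 0, 3 and 376 of 19, 156 and 29167 tested (0%, 1.92% and 1.29%). They were 3, 24 and 3293 with the level-dependent robust prior (15.8%, 15.4% and 11.3%), and 1, 5 and 628 with an offset of 16. A filter at a mean log2 of 6 gave 3, 23 and 2373, and a filter at 8 gave 2, 22 and 3000. These 2 filters test fewer probe sets than the main test, and no filter tests more, so their counts are not over the same totals. With no filter on low values they were 0, 0 and 0 in limma (3, 38 and 5645 at an unadjusted p under 0.05), and median centring gave 153 for all probe sets. Leaving out 1 array at a time gave 0 to 4, 0 to 22 and 0 to 2844 over both priors. With the replicate number as a block, limma called 0, 0 and 0 (3, 37 and 5189 at an unadjusted p under 0.05), and 6, 24 and 3558 with the replicate block and the level-dependent robust prior. That block with that prior added calls of Spry2 (limma adjusted p = 0.0459), Etv5 1428142_at (0.0487) and Spry4 1445669_at (0.0424). Deviations of same-numbered arrays correlated at −0.12, 0.21 and 0.23, and those of differently numbered arrays at −0.31 to 0.12. Replicates 2 and 3 thus gave the highest values and replicate 1 did not, so a shared replicate effect is not settled. The main test did not take the numbers to pair the samples. Of 400 values of single probe sets of the 9 genes under the alternatives, 356 kept their direction and their side of the threshold, 34 passed it, and 10 turned their direction. Those that turned were Fgfr1 at −0.10 with the mean of its probe sets, Fgfr2 1433489_s_at at 0.031 with median centring, 0.062 with quantile normalization and up to 0.079 without 1 array, and Grb2 1418508_a_at at 0.0065 with median centring. Without 1 array, Fgfr2 1433489_s_at ranged from −0.087 to 0.079, and it turned in 3 of the 6 such values, the same with either prior. The cause was not tested. No detection call was at hand to separate dim signals from background, which limits the dim Spry4, Etv4, Spry2 and Fgfr2 probe sets.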
